A study of Mus musculus with 6 samples.

Results

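The transcripts described here mark lymphocytes in a preparation of liver macrophages. They were 9 of the 49315 genes counted: the T cell genes Cd3d, Cd3e, Cd3g and Trbc2, the NK cell and cytotoxic genes Nkg7, Gzma and Ncr1, and the B cell genes Cd79a and Ms4a1. They were picked by gene symbol, as standard markers of cells that F4/80 beads are not meant to retain, and were followed library by library to gauge how much lymphocyte RNA the preparation held. F4/80-positive cells were isolated with magnetic beads from livers digested with collagenase, and RNA of 3 WT and 3 Lpcat3 KOMac mice was sequenced, 1 library per mouse. All mice had eaten a high-fat diet with 60% fat for 16 weeks, and no other treatment is stated for them. The study ran glucose, insulin and pyruvate tolerance tests on mice fed this diet. Whether the sequenced mice took part is not stated. The diet began in young adulthood, and the colony had a C57BL/6N background. Both genotypes were Lpcat3 fl/fl, with loxP sites in both alleles, and Lpcat3 KOMac mice also carried 1 LysM Cre allele, which drives recombination from the Lyz2 locus of myeloid cells and so leaves lymphocytes aside by design. The study describes the deficiency as partial. WT mice were littermates with LysM +/+. Lpcat3, the lysophospholipid acyltransferase targeted, gave 85, 66.2 and 61.2 CPM (read counts scaled by library size with TMM factors) for WT 1, WT 2 and WT 3 and 19.5, 33.3 and 19.4 CPM for the Lpcat3 KOMac libraries in the same order, so the labels and the targeted gene went together.

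T cells recognise antigen through a T cell receptor whose chains cannot signal on their own and depend on the CD3 proteins around them. B cells use membrane immunoglobulin in the same way, with CD79A and CD79B as the signalling partners, and plasma cells descend from them and secrete the antibody. NK cells carry no rearranged receptor, and kill through granules filled with granzymes and perforin. The liver is rich in NK cells and unconventional T cells, which patrol the sinusoids beside Kupffer cells.

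Total counts lay between 44954224 and 71392812 per library, so that 1 count was worth 0.0154 to 0.0219 CPM, and 3 counts or fewer in a library were taken as the floor of detection. The 9 Kupffer cell list genes, Adgre1, Clec4f, Vsig4, Timd4, Cd5l, Marco, Csf1r, C1qa and Lyz2, were abundant in every library. They summed to between 36702 and 51932 CPM in WT and between 26888 and 37554 CPM in Lpcat3 KOMac mice. This sum is not neutral to genotype, as it holds Lyz2, the locus of the Cre allele. Lyz2 was at 4695 to 7659 CPM in WT and 1533 to 2980 CPM in Lpcat3 KOMac mice. The 9 lymphocyte transcripts together gave only 3.57 to 5.88 CPM, or 195 to 315 counts. Hepatocyte transcripts were uneven: their 5 markers summed to 18801, 1718 and 1666 CPM across WT 1, 2 and 3 and to 4312, 12152 and 4226 CPM across Lpcat3 KOMac 1, 2 and 3, which made WT 1 and Lpcat3 KOMac 2 the hepatocyte-rich libraries. In bulk RNA, fewer cells of a type and less RNA per cell cannot be told apart, and this holds for every level below.

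All 9 lymphocyte transcripts were detected, all at low levels. Per kilobase of counted exon (RPKM), Cd79a stood highest with a mean of 1.28 over the 6 libraries (0.771 to 1.77), which placed it at the 32.1 percentile of all genes tested. Trbc2, the second constant region of the T cell receptor beta chain, followed with 0.661 RPKM, and Nkg7, a membrane protein of cytotoxic granules, with 0.501 RPKM. Ms4a1, which encodes CD20, was at 0.2 RPKM and Gzma, granzyme A, at 0.189 RPKM. The remaining T and NK transcripts formed a lowest tier, with Cd3g at 0.0963, Cd3d at 0.0955, Ncr1 at 0.0864 and Cd3e at 0.0677 RPKM, the last at the 2.21 percentile. Neighbours in this order overlapped in range throughout, and only Cd79a lay above the next gene, Trbc2, in all 6 libraries. Cd3g and Cd3d each led in 3 of the 6, so their order was not settled.

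**Figure D1:**
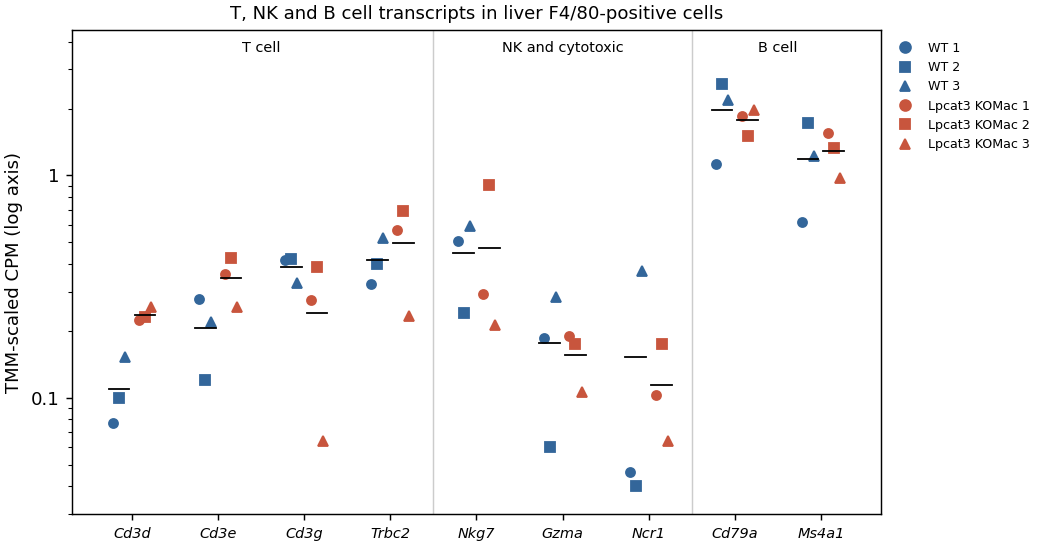
TMM-scaled CPM (vertical log axis) of the 9 lymphocyte transcripts in each of the 3 WT (blue) and 3 Lpcat3 KOMac (red) libraries, with symbols for the replicate number and black lines for the group means. The genotypes are separated for Cd3d alone, and the levels of Ncr1 run from 0.0399 to 0.372 CPM within WT mice.

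Among the T cell transcripts, Cd3d was the one whose genotypes did not overlap. WT libraries 1, 2 and 3 held 5, 5 and 7 counts of it and Lpcat3 KOMac libraries 13, 12 and 12, or 0.077, 0.0998 and 0.153 CPM against 0.224, 0.231 and 0.255 CPM. The log2 fold change was 1.11 (standard error 0.37), with an unadjusted p-value of 0.0239 and an adjusted p-value of 1 in edgeR's quasi-likelihood test. These are very few reads: the exact 95% Poisson interval of the lowest WT library, 0.025 to 0.18 CPM, overlapped that of Lpcat3 KOMac 1, 0.119 to 0.383 CPM. Such intervals cover counting error only. In addition, Cd3d reached the low-count filter of 0.196 CPM (before TMM scaling) in no WT library and in all 3 Lpcat3 KOMac libraries, so it could enter the test only by being higher in Lpcat3 KOMac mice, and its separation supports nothing by itself.

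Of its neighbours, Cd3e pointed the same way with overlap and Cd3g the other way. Cd3e, the CD3 epsilon chain, had 18, 6 and 10 counts in WT and 21, 22 and 12 in Lpcat3 KOMac mice, with levels of 0.277, 0.12 and 0.219 CPM against 0.362, 0.424 and 0.255 CPM. The log2 fold change was 0.74 (standard error 0.41), and the genotypes overlapped through WT 1 and Lpcat3 KOMac 3. Cd3g, the CD3 gamma chain, had 27, 21 and 15 counts in WT and 16, 20 and 3 counts in Lpcat3 KOMac mice. Its log2 fold change of -0.67 (standard error 0.59) rested on Lpcat3 KOMac 3, the library with 3 counts, and was -0.2 without it. Trbc2 had 21, 20 and 24 counts in WT and 33, 36 and 11 counts in Lpcat3 KOMac mice, and Lpcat3 KOMac mice held both the highest and the lowest library. The fold change of Trbc2 was 0.27 on the log2 scale (standard error 0.47). Because Trbc1 and Trbc2 are near-identical copies, the split of reads between them is uncertain.

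The 3 CD3 genes lie side by side on chromosome 9 of GRCm38, Cd3g at 44969572 to 44980431 on the minus strand, Cd3d at 44981786 to 44987339 on the plus strand and Cd3e at 44998740 to 45009627 on the minus strand. Cd3g and Cd3d start head to head with 1354 bases between them, which is why the stretches before both starts are shown, from RefSeq on GRCm38 (chr9:44981536-44981785 for Cd3d, plus strand, and chr9:44980432-44980681 for Cd3g, minus strand). Capitals mark matches on either strand to an Ets core (GGAAG) or an E-box (CAGGTG), motifs of transcription factor families known from T cells, and a Runx core (TGTGGT) was searched too.
Cd3d: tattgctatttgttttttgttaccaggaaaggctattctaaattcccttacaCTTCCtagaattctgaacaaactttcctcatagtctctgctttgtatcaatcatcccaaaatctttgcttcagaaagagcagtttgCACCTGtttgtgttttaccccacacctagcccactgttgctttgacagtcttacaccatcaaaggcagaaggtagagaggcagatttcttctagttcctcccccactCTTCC
Cd3g: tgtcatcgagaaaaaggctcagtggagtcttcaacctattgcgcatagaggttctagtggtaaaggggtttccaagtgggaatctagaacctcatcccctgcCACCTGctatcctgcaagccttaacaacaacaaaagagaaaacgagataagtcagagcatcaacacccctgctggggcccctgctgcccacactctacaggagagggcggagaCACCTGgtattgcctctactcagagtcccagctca
Cd3d held 2 Ets matches and 1 E-box match, Cd3g held 2 E-box matches and no Ets match, and the Runx letters were in neither window. Among 27025 windows of 250 bases before RefSeq starts, 63.6% held the Ets letters, 17.1% the E-box letters and 14.2% the Runx letters, so these matches describe the windows and nothing further. Despite the shared neighbourhood, Cd3d and Cd3g levels went in opposite directions over the 6 libraries (Pearson r = -0.62 on log2 CPM), as against 0.57 for Cd3d with Cd3e. With counts this low and libraries shared between both genes, these values are descriptions.

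The NK cell and cytotoxic transcripts did not separate the genotypes. Nkg7 had 33, 12 and 27 counts in WT and 17, 47 and 10 counts in Lpcat3 KOMac mice, and the highest and lowest libraries were both Lpcat3 KOMac, at 0.906 and 0.212 CPM. Its log2 fold change was 0.08 (standard error 0.66), and it became -0.8 when Lpcat3 KOMac 2, a hepatocyte-rich library, was left out. Gzma had 12, 3 and 13 counts in WT and 11, 9 and 5 counts in Lpcat3 KOMac mice, with WT 2 at the floor. Ncr1, the NK cell receptor NKp46, had 3, 2 and 17 counts in WT and 6, 9 and 3 counts in Lpcat3 KOMac mice, and was over the floor in 3 libraries, most clearly in WT 3. Neither Gzma nor Ncr1 passed the low-count filter. Fitted without it, their log2 fold changes were -0.16 (standard error 0.62) and -0.37 (standard error 0.92). The value of Ncr1 turned to 1.33, and that of Gzma to 0.3, without WT 3.

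The B cell transcripts were the best counted. Cd79a had 73, 129 and 100 counts in WT and 108, 78 and 93 counts in Lpcat3 KOMac mice, or 1.12, 2.58 and 2.19 CPM against 1.86, 1.5 and 1.98 CPM. All Lpcat3 KOMac libraries lay within the WT range. Ms4a1 had 40, 86 and 56 counts in WT and 90, 69 and 46 counts in Lpcat3 KOMac mice, and its Lpcat3 KOMac libraries again lay within the WT range of 0.616 to 1.72 CPM. The log2 fold changes were -0.14 (standard error 0.36) for Cd79a and 0.12 (standard error 0.43) for Ms4a1. WT 1, the library richest in hepatocyte transcripts, was the lowest for both.

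The spread over the 6 libraries was set against counting error, for which a chi-square per degree of freedom near 1 would be found. It was 1.71 for Gzma and 1.8 for Cd3d, but 6.16 for Ncr1, 7.52 for Ms4a1, 7.92 for Nkg7 and 7.95 for Cd79a. Summed by lineage, the T cell transcripts were at 1.12 ± 0.0959 CPM in WT and 1.32 ± 0.473 CPM in Lpcat3 KOMac mice (SD, n = 3). The NK transcripts were at 0.775 ± 0.455 and 0.741 ± 0.456 CPM, and the B cell transcripts at 3.15 ± 1.3 and 3.07 ± 0.303 CPM. The 3 lineages did not peak in the same libraries: the T cell sum was highest in Lpcat3 KOMac 2 (1.74 CPM), the NK sum in Lpcat3 KOMac 2 and WT 3 (both 1.25 CPM) and the B cell sum in WT 2 (4.29 CPM).

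In the comparison of genotypes, 7 of the 9 transcripts entered the edgeR test and none was called at an adjusted p under 0.05, as was true of all 16134 genes tested (0%). Even the targeted gene Lpcat3 was not called, at a log2 fold change of -1.56 (standard error 0.26, unadjusted p-value of 0.00119 in edgeR). The absence of calls therefore says little about the transcripts. Among them, 1 of the 7, Cd3d, had an unadjusted p under 0.05, against 2.64% of all genes tested (426 genes). Cd3d was also the only one without overlap in the higher direction, against 2.29% of all genes, and 0 lay without overlap in the lower direction, against 5.2%. As Cd3d could pass the filter only from the higher side, these counts show no tendency of the transcripts. DESeq2 called 15 of all genes and limma-voom 0, and neither called any of the 9. In DESeq2 after the low-count filter, Cd79a and Ms4a1 alone received an adjusted p-value, so the other transcripts could not be called there. Of the 7 tested, 5 had a log2 fold change above 0 and 2 below, with a median of 0.12. Over all 16134 genes tested, 6466 lay above 0 and the median was -0.04. Exact two-sided permutation p-values of the single transcripts ran from 0.1 to 1, and 0.1 is the smallest that 3 mice against 3 allow.

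The 9 transcripts were then set among 106 lymphocyte genes in 9 lists, of which 76 were tested and 0 were called by edgeR, DESeq2 or limma-voom. DESeq2 gave no adjusted p-value to some of these genes, among them Ighm, Igkc, Jchain, Bcl11b, Tbx21 and Ighg1, and so could not call them. The median log2 fold change of these 76 was 0.05. An unadjusted p under 0.05 was found for 5 of them, against 2.64% of all genes tested. In Lpcat3 KOMac mice 8 lay without overlap higher, against 2.29%, and 1 lower, against 5.2%. The same filter effect applied: 4 genes, Cd3d, Bcl11b, Tbx21 and Ighg1, reached the filter in Lpcat3 KOMac libraries alone, and these were the 4 with an unadjusted p under 0.05 in the higher direction. The other 72 genes reached the filter in at least 1 library of each genotype. Of these, 4 lay without overlap higher (2.29% of all genes), 1 lower (5.2%), and 1 had an unadjusted p under 0.05 (2.64%). The filter effect is reduced there and not removed: Cd28 reached the filter in 1 WT and 3 Lpcat3 KOMac libraries. The shares over all genes also hold genes that passed the filter through 1 genotype, and counts this small are no result about the lists.

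**Figure D2:**
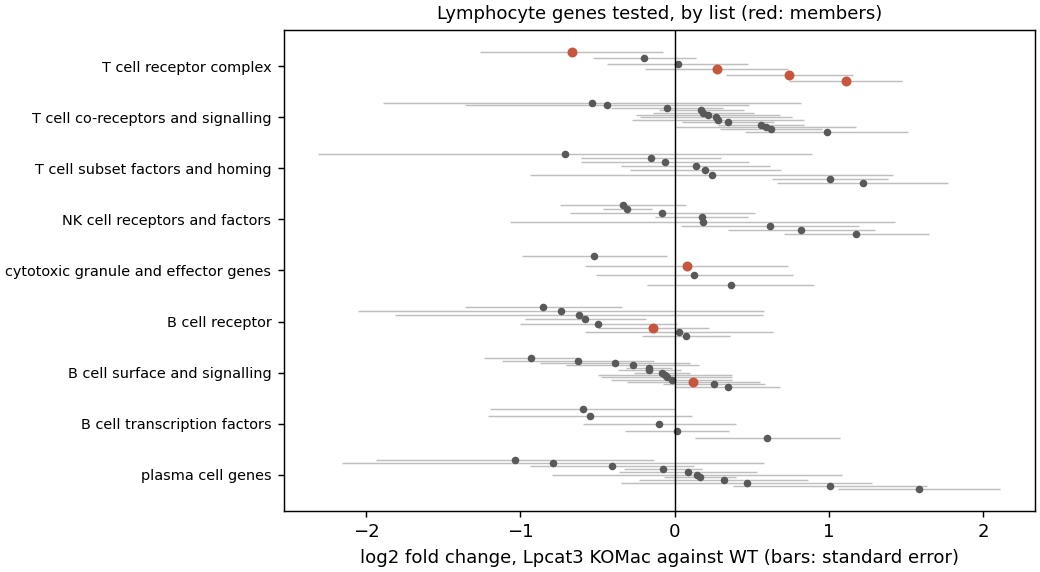
Log2 fold change of Lpcat3 KOMac against WT (horizontal axis, bars for the standard error) for the 76 lymphocyte genes tested, 1 row of points per list, with the 7 tested members in red. The points scatter on both sides of 0 in every list, from -1.04 to 1.59.

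In the T cell receptor complex, 6 of 11 genes were tested, 4 of them above 0 and 2 below, with a median of 0.15. Trac, the constant region of the alpha chain, had 35, 20 and 18 counts in WT and 29, 20 and 13 counts in Lpcat3 KOMac mice (log2 fold change -0.2, standard error 0.33). Trbc1 was at 0.02 (standard error 0.46). Cd247, the CD3 zeta chain, had only 3 to 16 counts per library and was not tested. Reads of the gamma and delta chains were fewer still, with Trdc at 0 counts in 3 libraries and at most 6 counts in the others.

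Of the 16 T cell co-receptor and signalling genes, 13 were tested, 10 above 0 and 3 below, with a median of 0.27. Cd4 was at 1.74 to 3.56 CPM and did not separate the genotypes (log2 fold change -0.05, standard error 0.36). Themis and Zap70, signalling proteins of T cells, were well above the CD3 genes but mainly in the hepatocyte-rich libraries. Themis had 814, 48 and 11 counts in WT and 176, 244 and 83 counts in Lpcat3 KOMac mice, and Zap70 had 279, 28 and 31 against 58, 121 and 36 counts. Among subset and homing factors, 8 of 10 were tested, with 5 above 0, 3 below and a median of 0.17, and the same pattern was seen for Zbtb16, the PLZF factor of innate-like T cells. Zbtb16 had 861, 15 and 13 counts in WT and 156, 258 and 38 counts in Lpcat3 KOMac mice. The 2 highest libraries were WT 1 and Lpcat3 KOMac 2 for Themis, Zap70 and Zbtb16 alike, as they were for albumin (Alb, 13054 and 9289 CPM, against 1205 to 3138 CPM in the other libraries), and the part of hepatocyte RNA in these levels was not tested. The CD3 genes showed no such concentration.

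Of the T cell genes with an unadjusted p under 0.05, Bcl11b, a transcription factor of T cell commitment, had 10, 5 and 7 counts in WT and 20, 15 and 9 counts in Lpcat3 KOMac mice. On the log2 scale it differed by 1.01 (standard error 0.38) and the p-value adjusted over all genes was 1 in edgeR. Il7r, the interleukin 7 receptor of naive and memory T cells, was better counted, with 94, 24 and 84 counts in WT and 237, 142 and 92 counts in Lpcat3 KOMac mice. Its genotypes did not overlap in CPM, with 0.479 to 1.84 against 1.95 to 4.08 CPM, and the log2 fold change was 1.22 (standard error 0.55, unadjusted p-value of 0.0715 in edgeR). The other genes that lay without overlap higher and reached the filter in at least 1 library of each genotype were Cd28, Thy1 and, from the NK cell list, Klrb1c. They were named after their values were seen. Log2 fold changes were 0.56 (standard error 0.28), 0.63 (standard error 0.33) and 0.62 (standard error 0.58). Unadjusted p-values in edgeR were 0.0941, 0.107 and 0.326.

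Of 20 NK cell receptors and factors, 8 were tested, 5 above 0 and 3 below, with a median of 0.18. Klrk1, the activating receptor NKG2D, was far above Ncr1, with 42.6, 62.6 and 50.6 CPM in WT and 45.7, 40.8 and 39.5 CPM in Lpcat3 KOMac mice. Per kilobase that was 6.54 RPKM against 0.0864 RPKM for Ncr1. In the same list Klrd1, Klrb1c and Eomes were at 0.164, 0.183 and 0.0367 RPKM, and Klrc1, Klra3 and Itga1 at 1.74, 1.76 and 2.33 RPKM. Klrk1 ranged 1.59-fold over the libraries and Ncr1 9.31-fold. Which cells gave the Klrk1 reads was not tested. Itga1, the integrin CD49a carried by liver-resident NK cells and by other liver cells, was at 5.83 to 13.9 CPM in WT and 8.67 to 24.2 CPM in Lpcat3 KOMac mice. Tbx21, which encodes T-bet, had 12, 3 and 4 counts in WT and 17, 12 and 12 counts in Lpcat3 KOMac mice (log2 fold change 1.18, standard error 0.47, adjusted p-value of 1 in edgeR). Klrc1, which encodes the inhibitory receptor NKG2A, was at 2.83 to 5.45 CPM in WT and 1.78 to 4.13 CPM in Lpcat3 KOMac mice, so the genotypes overlapped. Klra1, Klra4, Klra7 and Klrg1 were at or under 3 counts in every library. Of 11 cytotoxic granule and effector genes, 4 were tested, 3 above 0 and 1 below, with a median of 0.1. Ccl5, a chemokine of cytotoxic lymphocytes, was the highest at 1.4 to 3.26 CPM in WT and 1.59 to 4.84 CPM in Lpcat3 KOMac mice, and Gzmb followed with 0.16 to 0.722 against 0.34 to 0.849 CPM. Ctsw, a cathepsin of cytotoxic cells, gave 0.2 to 0.656 and 0.255 to 0.327 CPM.

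All 8 genes of the B cell receptor were tested, 2 above 0 and 6 below, with a median of -0.54. Apart from Cd79b, all of them were highest in WT 2. Without that library the log2 fold changes of Ighm and Igkc, described below, turned to 1.77 and 1.52. Cd79b, the partner of Cd79a in the receptor, was at 10.3 to 21.3 CPM in WT and 14.9 to 16.4 CPM in Lpcat3 KOMac mice, and its 10.5 RPKM stood against 1.28 RPKM for Cd79a. All 13 B cell surface and signalling genes were tested, 3 above 0 and 10 below, with a median of -0.08. Bank1, Cd22 and Blnk, a B cell scaffold protein, an inhibitory receptor for sialic acid and an adaptor of receptor signalling, were at 18.5, 14.7 and 5.01 RPKM, far above Ms4a1 (0.2 RPKM). Bank1 differed little between mice, with 119 to 175 CPM in WT and 126 to 134 CPM in Lpcat3 KOMac mice. Which cells gave the Cd79b, Bank1, Cd22 and Blnk reads was not tested. Fcrla, an intracellular Fc receptor-like protein of B cells, had 62, 49 and 40 counts in WT and 33, 17 and 27 counts in Lpcat3 KOMac mice. It was the only gene of the 9 lists without overlap in the lower direction, at -0.93 on the log2 scale (standard error 0.31), with an unadjusted p-value of 0.0239 and an adjusted p-value of 1 in edgeR. All 5 B cell transcription factors were tested, 2 above 0 and 3 below, with a median of -0.1, and Pax5, which fixes B cell identity, was at 0.831, 3.33 and 2.34 CPM in WT and 1.86, 0.752 and 1.68 CPM in Lpcat3 KOMac mice. Pou2af1, a B cell coactivator, ranged over 0.662 to 2.38 and 1.1 to 1.68 CPM, and Ikzf3, the Aiolos factor of lymphocytes, over 0.785 to 2.26 and 1.54 to 3.04 CPM, and both genotypes overlapped for each of these factors.

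Immunoglobulin genes separated 2 libraries from the other 4 in a way that Cd79a and Ms4a1 did not. Ighm, the constant region of IgM, had 1078, 13114 and 827 counts in WT 1, 2 and 3 and 1789, 1148 and 5876 counts in Lpcat3 KOMac 1, 2 and 3. Igkc, the kappa light chain constant region, had 638, 5826 and 501 against 941, 635 and 2861 counts, and Jchain, which joins IgM and IgA into polymers, 101, 1515 and 78 against 180, 145 and 636 counts. All 3 were highest in WT 2, next in Lpcat3 KOMac 3 and much lower elsewhere. The ratio of Ighm to Cd79a counts was 102 in WT 2 and 63.2 in Lpcat3 KOMac 3, against 8.27 to 16.6 in the other 4 libraries. Ighd and Igha did not share the pattern, with Ighd at 3.07 CPM in WT 2 and 1.49 CPM in Lpcat3 KOMac 3 and Igha at 0.938 and 1.49 CPM.

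Most of the variable segment reads of these 2 libraries were counted on 1 heavy and 1 light chain segment. V segments resemble each other and the handling of reads that match several is not given, so the split between segments is uncertain, and why the same pair led in 4 mice was not tested. Ighv4-1 had 12, 3833 and 92 counts in WT and 18, 76 and 1259 counts in Lpcat3 KOMac mice, and Igkv1-88 had 12, 2931 and 101 against 12, 58 and 1137 counts. In WT 2, Ighv4-1 made up 95.4% of all Ighv counts and Igkv1-88 91.9% of all Igkv counts. In Lpcat3 KOMac 3 the shares were 86.6% and 78%, and in WT 1 they were 4.44% and 3.07%. The count of Ighv4-1 was 0.911 to 1.5 times that of Igkv1-88 in every library. Both were also the leading segments of WT 3 (50% and 39.8%) and Lpcat3 KOMac 2 (29.5% and 16%). Without this pair, the remaining Ighv counts were at 2.01 to 5.11 CPM and the remaining Igkv counts at 3.35 to 10.6 CPM, and neither was highest in WT 2 or Lpcat3 KOMac 3. In Lpcat3 KOMac 1, where the remaining counts were highest, the leading segments were Ighv1-53 (61 counts, 19.4%) and Igkv3-2 (213 counts, 34.1%), and in WT 1 they were Ighv2-3 (25 counts) and Igkv1-117 (29 counts).

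The last 150 coding bases of both segments are shown because these V segments carried the pattern, as given by GENCODE M21 transcripts on GRCm38 (Ighv4-1 at chr12:113948282-113948431 and Igkv1-88 at chr6:68862265-68862414, both on the minus strand, in the second exon). Capitals mark TATTACTG, which spans the codons of 2 tyrosines and the start of the conserved cysteine before the junction. These are germline sequences, and neither the junction nor any mutation can be read from gene counts.
Ighv4-1: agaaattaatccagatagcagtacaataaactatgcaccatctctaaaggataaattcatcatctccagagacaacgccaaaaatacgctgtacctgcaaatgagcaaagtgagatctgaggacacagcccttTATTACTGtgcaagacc
Igkv1-88: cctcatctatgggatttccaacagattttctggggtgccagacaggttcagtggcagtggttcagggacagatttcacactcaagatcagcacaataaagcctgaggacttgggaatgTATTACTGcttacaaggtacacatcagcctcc
The same letters, on the coding strand, were found in the last 150 bases of 64 of 113 Ighv segments (56.6%) and 67 of 100 Igkv segments (67%), so they do not set this pair apart.

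**Figure D3:**
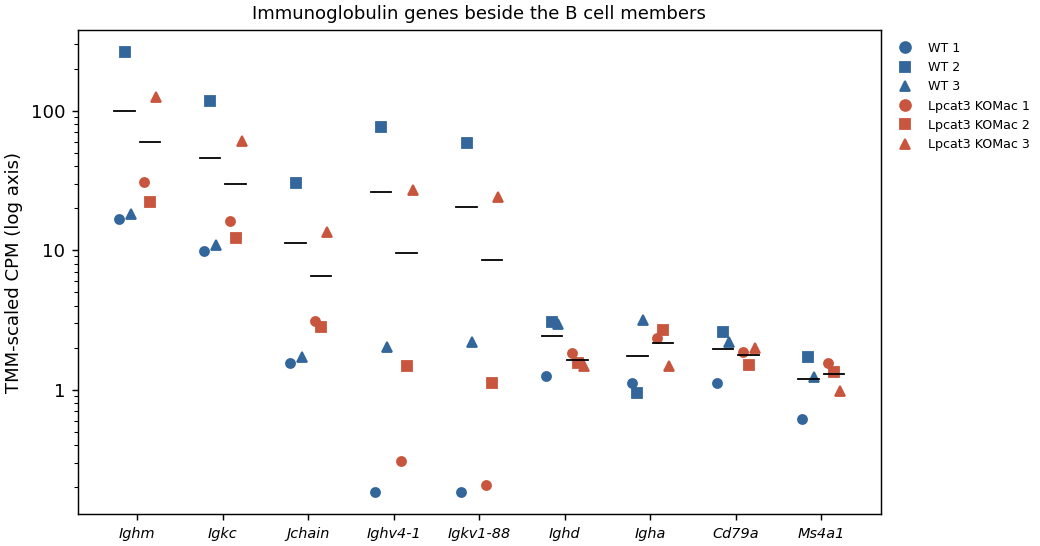
TMM-scaled CPM (vertical log axis) of immunoglobulin genes and the B cell transcripts Cd79a and Ms4a1 in each of the 3 WT (blue) and 3 Lpcat3 KOMac (red) libraries, with symbols for the replicate number and black lines for the group means. WT 2 and Lpcat3 KOMac 3 stand apart for Ighm, Igkc, Jchain, Ighv4-1 and Igkv1-88 and do not stand apart for Ighd, Igha, Cd79a and Ms4a1.

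Since each genotype held 1 of these libraries, the genotype contrast of the immunoglobulin genes depended on which was included. The log2 fold changes were -0.74 (standard error 1.32) for Ighm, -0.62 (standard error 1.19) for Igkc and -0.79 (standard error 1.37) for Jchain. Without WT 2 they were 1.77, 1.52 and 1.99, and without Lpcat3 KOMac 3 they lay at -1.87, -1.65 and -1.89. With both left out they were 0.63, 0.48 and 0.88. Cd79a moved from -0.14 to 0.06 when both were left out. Of the 12 plasma cell genes, 11 were tested, 7 above 0 and 4 below, with a median of 0.15. Mzb1, a chaperone of antibody-secreting cells, shared the peak in WT 2 (117 counts, against 17 to 30 in the other libraries). Prdm1 and Irf4, factors of the plasma cell programme that macrophages also use, were even, at 18.7 to 34.5 and 6.53 to 12.6 CPM over all libraries. Sdc1, the plasma cell surface proteoglycan CD138 that hepatocytes also make, was highest in WT 1 (45.8 CPM) and Lpcat3 KOMac 2 (35.3 CPM). Ighg1, the IgG1 constant region, had 10, 4 and 8 counts in WT and 38, 18 and 11 counts in Lpcat3 KOMac mice (log2 fold change 1.59, standard error 0.53, adjusted p-value of 1 in edgeR).

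T cell receptor segments were counted far more thinly. All Trav segments together had 12 to 31 counts per library and all Trbv segments 6 to 23 counts. Trav14d-3-dv8 was the leading Trav segment in all 6 libraries, with 4 to 16 counts. Its share of the few Trav counts was 33.3% to 94.1%, highest in Lpcat3 KOMac 3 (16 of 17 counts) and WT 1 (72.7%). The shares of Ighv4-1 ran otherwise, at 4.44% of Ighv counts in WT 1 and 95.4% in WT 2, where Trav14d-3-dv8 was at its lowest share. No Trbv segment exceeded 10 counts. Between 0 and 2 segments of each class passed 3 counts in a library, as against 5 to 28 Ighv and 15 to 34 Igkv segments.

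Finally, levels were compared across libraries for 1 transcript of each lineage, Cd3e, Nkg7 and Cd79a, with each other and with the hepatocyte transcript Alb (6 relations on log2 CPM with a prior count of 2, exact permutation p-values). Cd79a was lower where Alb was higher, with Pearson r = -0.96 (p = 0.00278, adjusted 0.0167, exact permutation, n = 6) and Spearman rho = -0.94 (p = 0.0167, adjusted 0.1, exact permutation). Without WT 1 and Lpcat3 KOMac 2, the libraries farthest from the median of Alb, r was -0.9 over the remaining 4 libraries. Both are shares of 1 library total, and within a genotype 3 libraries are too few to give the relation. The r values of Cd3e and Nkg7 with Alb were 0.70 and 0.49 (adjusted p of 0.322 and 0.328, exact permutation), and Spearman's rho was 0.71 and 0.31 (adjusted p of 0.272 and 0.564, exact permutation). Without the same libraries r became 0.83 for Cd3e and -0.46 for Nkg7. Cd3e with Nkg7 gave r = 0.52 and rho = 0.49, Cd3e with Cd79a r = -0.64 and rho = -0.83, and Nkg7 with Cd79a r = -0.52 and rho = -0.43. The adjusted exact permutation p-values of these 3 relations lay between 0.175 and 0.503. With the 2 farthest libraries left out, r was -0.43, -0.25 and -0.48, so the sign of Cd3e with Nkg7 rested on WT 2 and Lpcat3 KOMac 2.

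**Figure D4:**
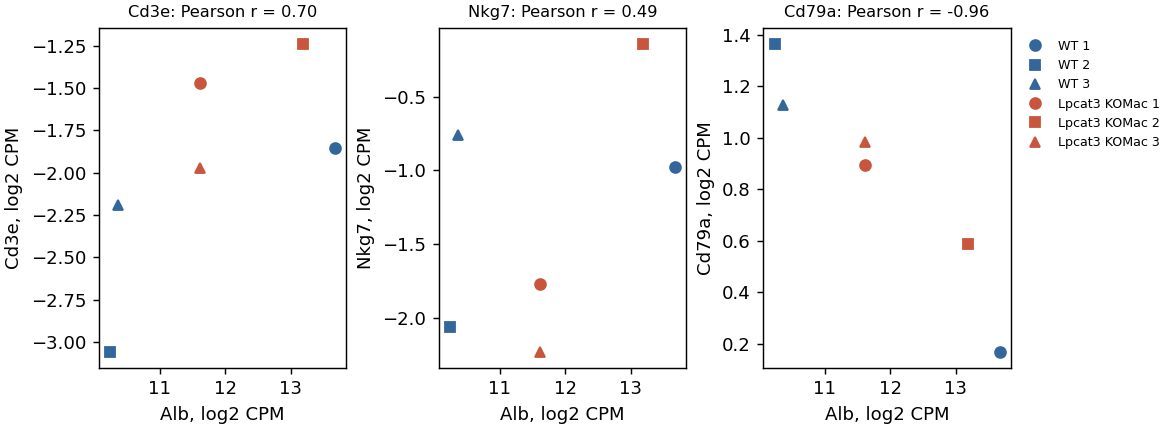
Log2 CPM of Cd3e, Nkg7 and Cd79a (vertical axes) against log2 CPM of Alb (horizontal axes) in the 6 libraries, with Pearson r from log2 CPM with a prior count of 2 above each panel. Cd79a falls from 2.58 CPM in WT 2 to 1.12 CPM in WT 1 as Alb rises from 1205 to 13054 CPM, while Nkg7 shows no such order.

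Over all pairs of the 9 transcripts, the highest r was between Cd79a and Ms4a1 (0.77) and between Gzma and Ncr1 (0.76). T cell pairs were lower, with 0.62 for Cd3g with Trbc2, 0.22 for Cd3d with Trbc2 and -0.08 for Cd3e with Cd3g, and pairs across lineages reached 0.64 for Trbc2 with Nkg7 and 0.63 for Trbc2 with Ncr1. These are descriptions over 6 shared libraries. The 10 genes with the highest r over the 6 libraries were taken for each of Cd3e, Nkg7 and Cd79a, whatever their level. Of these, 0 of 30 were in the lymphocyte lists, which hold only 76 of the 16134 genes tested, so this count says little. For Cd3e they began with Nos3, Tpbgl and Gm10605 and included Gpihbp1 (r = 0.99), a protein of capillary endothelium, for Nkg7 with Ppp1r7 and Eif2a (both r = 0.99), and for Cd79a with Kdm4c (r = 0.998) and Fancd2 (r = 0.997). With 6 libraries such values are common, since 356, 100 and 1043 of 16133 genes had r over 0.9 with Cd3e, Nkg7 and Cd79a. The liver endothelial markers summed to 795 to 909 CPM in WT and 880 to 1063 CPM in Lpcat3 KOMac mice.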

How the data were processed

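RNA of F4/80-positive liver cells (RNeasy extraction, poly-A selected NEBNext Ultra libraries) was sequenced from 3 WT and 3 Lpcat3 KOMac mice. The authors deposited raw read counts per Ensembl gene, without normalization. The submitters' processing notes name Trimmomatic 0.36, STAR 2.5.2b, featureCounts and Subread 1.5.2 and the build GRCm38. The strand setting and the handling of multiply mapped reads are not given in the sources used here, and the library kit does not mark strand. Of the 49315 gene identifiers, 49056 were found in GENCODE M21, which supplied symbols. Cd3e shares 135 exonic bases with the antisense gene Gm48719 (at most 1 count), and no other exon of the 9 transcripts is shared.

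Genotypes were compared in R 4.3.3 with edgeR 4.0.16 (TMM, default filter with a minimum count of 10, robust quasi-likelihood test, genotype as the only term, Benjamini-Hochberg over 16134 genes, threshold 0.05). Standard errors were obtained as |log2 fold change|/√F. CPM were TMM-scaled, and RPKM were CPM per kilobase of the length column deposited with the counts. A non-overlap means that every Lpcat3 KOMac library was above, or below, every WT library in CPM. Single transcripts were also compared by exact permutation. Alternatives were other scalings and filters, DESeq2 1.42.0, limma-voom (limma 3.58.1), a replicate block and left-out libraries. DESeq2 without a filter and leaving out both immunoglobulin-rich libraries were chosen after seeing the data.

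The members and lists were chosen with earlier results of these data known. Besides all members, the text names the 3 genes of each list with the highest mean CPM, genes of the lists with an unadjusted p under 0.05, genes among the 10 most like Cd3e, Nkg7 and Cd79a, and the leading variable segments. Some genes that this rule would name are not reported here, and other genes were named after their values were seen. P-values measure the spread between these libraries, and their independence beyond 1 mouse each is not stated. The fits were also run on simulated counts, with large planted changes and the same spread between mice for every gene. The spread in these libraries was uneven, so that run says little about the transcripts described here. No library duplicated another (chi-square over degrees of freedom at least 37). Sequences came from RefSeq (GRCm38) and GENCODE M21, and Trbc2 and Ms4a1 had no promoter entry in the table used.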

Additional observations from a re-analysis of the deposited data

How the results depend on the processing

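No member was called under any of the alternatives, but DESeq2 gave most members no adjusted p-value and so could not call them. Of 135 member values under alternatives, 118 kept their direction and 17 reversed, and Cd3d, Cd3e and Cd3g kept theirs throughout. All alternatives reuse the same libraries, so this tally is no independent support. The genotypes of Cd3d did not overlap, so leaving out libraries could hardly turn its sign, and its steady direction adds nothing. Among all genes DESeq2 called 15, and 14 without a low-count filter, against 0 in edgeR, and the cause was not tested. With both hepatocyte-rich libraries left out, Trbc2 was at -0.18, Nkg7 at -0.69 and Ms4a1 at -0.21. In limma-voom Nkg7 was at -0.11, Gzma at 0.034, Ncr1 at 0.25, Ighm at 0.038 and Jchain at 0.20. With both immunoglobulin-rich libraries left out, Cd79a was at 0.057, Ighm at 0.63, Igkc at 0.48 and Jchain at 0.88. Leaving out 1 mouse at a time gave -0.021 to 0.64 for Trbc2, -0.80 to 0.46 for Nkg7, -0.52 to 0.30 for Gzma, -0.81 to 1.33 for Ncr1, -0.42 to 0.11 for Cd79a and -0.19 to 0.49 for Ms4a1. For Ighm, Igkc and Jchain the ranges were -1.87 to 1.77, -1.65 to 1.52 and -1.89 to 1.99, and Cd3d stayed between 0.90 and 1.41. The sign turned without Lpcat3 KOMac 2 for Trbc2 and Nkg7, without WT 2 for Nkg7, Cd79a and the 3 immunoglobulin genes, without WT 3 for Ncr1 and Gzma, without Lpcat3 KOMac 3 for Gzma and without WT 1 for Ms4a1. Genes at an unadjusted p under 0.05 numbered 179 to 2028, the highest without WT 1. Pearson r of Cd3e with Nkg7 became -0.43, and of Alb with Nkg7 -0.46, without the 2 farthest libraries. Depth limits the CD3, Gzma and Ncr1 values, which rest on 2 to 27 counts per library.

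Whether the replicate numbers pair the mice is not stated. The deviations of same-numbered libraries correlated at -0.30, -0.60 and 0.36, values of mixed sign that cannot settle it. With the replicate block edgeR called 0 genes, and the log2 fold changes that reversed were -0.14 for Nkg7, 0.11 for Ncr1, 0.34 for Ighm, 0.20 for Igkc and 0.45 for Jchain.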

Other observations

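Other non-parenchymal and blood cell transcripts were also measurable. Stellate cell markers summed to 51.5 to 132 CPM in WT and 95.7 to 175 CPM in Lpcat3 KOMac mice, and neutrophil markers to 80.3 to 157 and 78.7 to 142 CPM. Nearly all of the neutrophil sum was Csf3r (74.7 to 155 CPM), which monocytes and macrophages also express, while S100a8 was at 0.719 to 2.19 CPM, S100a9 at 0.785 to 2.83 CPM and Ly6g at or under 3 counts in every library. Dendritic cell markers summed to 16.2 to 54.6 CPM in WT and 26.7 to 34.3 CPM in Lpcat3 KOMac mice, mainly from Clec9a (13.8 to 51.3 CPM), with Xcr1 at 1.05 to 2.06 and Flt3 at 0.319 to 0.853 CPM. Erythroid markers, the globins and Alas2, were at 22.7 to 67.9 and 64.6 to 68.2 CPM. Basophil and mast cell markers gave 3.33 to 8.05 and 6.88 to 11.8 CPM, mainly from Hdc and Gata2, with Cpa3 and Ms4a2 at or under 3 counts in every library.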
